A study of Mus musculus with 8 samples.

Results

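RNA polymerase II transcribes the protein-coding genes. It starts at a promoter together with a set of general factors: TFIID, which holds the TATA-binding protein TBP and its associated factors (TAFs), and TFIIA, TFIIB, TFIIE, TFIIF and TFIIH. Mediator, a complex of head, middle and tail modules with a detachable kinase module, carries signals from enhancer-bound activators to the polymerase. Nearly every cell uses this machinery, so its genes also show how completely a library samples the commonly used transcripts.

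The genes described here were taken by symbol: Polr2a to Polr2m, Med followed by a number, Gtf2a to Gtf2h, Taf followed by a number, plus Tbp and Ccnc. This rule was met by 80 of the 26608 gene symbols in the deposited tables. They comprise 12 polymerase subunits, 31 Mediator genes including Ccnc, 24 TAFs and Tbp, and 13 genes of TFIIA to TFIIH. The symbols also bring in genes of other machines. Taf1a, Taf1b, Taf1c and Taf1d belong to the TBP complex of RNA polymerase I, Taf5l and Taf6l to the coactivator SAGA, and 5 polymerase subunits (Polr2e, Polr2f, Polr2h, Polr2k and Polr2l) are shared with RNA polymerases I and III.

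Expression was measured by SAGE, which counts 1 short tag per transcript, in neural tube tissue cut by laser from cryosections of FVB mouse embryos at embryonic day 8.5. Both groups came from embryos of diabetic dams, so neither stands for a pregnancy without diabetes. The 4 protrusion libraries came from outgrowths of the open neural plate, of which protrusion 1 was separated from the plate and protrusions 2 to 4 were attached. The 4 open neural tube libraries, numbered 9, 10, 13 and 14, came from open neural tissue just anterior to closure site 1, the place where the neural folds first meet. The labels do not say whether the libraries of a group came from separate embryos. Protrusions 1 and 2 have titles that differ by their last character alone. The p-values therefore rest on differences among these libraries, some of which may be technical.

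Total counts ranged from 6112477 to 11430602 reads in protrusions and from 5668054 to 16655583 in open neural tubes. After thinning to the smallest total, 14360 to 15559 genes were detected in protrusions and 9920 to 11244 in open neural tubes. This gap separates the groups completely. CPM below is the count scaled to the library total. The 9 neural progenitor markers summed to 509 to 1132 CPM in protrusions and 222 to 1374 CPM in open neural tubes, with open neural tube 13 lowest of all. Sox2 was present in every library, but Zic1 was at 0.430 to 1.05 CPM in the attached protrusions and 51.0 CPM in protrusion 1, against 352, 105, 4.74 and 112 CPM in open neural tubes 9, 10, 13 and 14. Sox1 was at 4.01 to 6.85 CPM in the attached protrusions and 108 CPM in protrusion 1, against 15.3 CPM in open neural tube 13 and 78.0 to 99.6 CPM in the other open neural tubes. Other neural progenitor markers went the other way. Sox3 was at 23.9 to 50.7 CPM in the attached protrusions and 0 in protrusion 1, against 0 to 3.18 CPM in open neural tubes. Cdh2 was at 91.9 to 144 CPM in protrusions and 31.4 to 88.3 CPM in open neural tubes. The 8 endothelial markers summed to 1.58 to 34.7 CPM in protrusions and 7.50 to 166 CPM in open neural tubes, highest in open neural tube 13. All 6 primitive streak markers examined were in the tables, with a summed level of 40.7 to 821 CPM in the protrusions and 0.6004 to 23.99 CPM in the open neural tubes, where Mixl1, Eomes and Nkx1-2 were at 0 in all 4. The 8 paraxial mesoderm markers summed to 371 to 876 CPM in the protrusions and 33.4 to 222 CPM in the open neural tubes. The 7 embryonic erythroid markers summed to 1.00 to 46.8 CPM in the protrusions and 1.06 to 1007 CPM in the open neural tubes, with open neural tubes 13 and 14 highest. The 7 surface ectoderm markers summed to 1035 CPM in protrusion 3, where Cdh1 alone had 871 CPM. Their sum was 141 to 156 CPM in the other protrusions and 57.3 to 324 CPM in the open neural tubes. The part of these differences in cell makeup in the values below was not tested. In such bulk tissue, fewer cells of a type and less RNA per cell cannot be told apart.

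Whether a gene can be counted depends on its tag. The kit is known to cut at CATG and to read the bases after the CATG nearest the 3′ end of a transcript, although the labels do not name the enzyme. In the transcripts of GENCODE mouse release M21 (build GRCm38), 18563 protein-coding genes of the tables had a CATG in the chosen transcript, and 54.0% of them had a mean of at least 1 CPM. Of the 84 genes with no CATG, 2.38% did. Absence of another sequence of 4 bases, GATC, used as a comparison, left 25.6% of 312 genes that do have CATG at or above that level. Of the 80 genes described here, 78 had a predicted tag and Polr2k and Med29 had no CATG at all. Tags of the genes on which the results below turn are printed with CATG in capitals and the 22 bases after it in lower case. The first 5 belong to genes whose values are described in detail below, and the last 3 to genes with hardly any reads.
Polr2a: CATGaaggtctctgctttcctgtgac
Polr2h: CATGaacctgaagttgtatatgattt
Med10: CATGggtttcaactagacataataaa
Med28: CATGagtggcattagtacccttgtaa
Tbp: CATGcagttaaaggatgttcaaaact
Taf9: CATGttagatgttttaaagctgtact
Polr2l: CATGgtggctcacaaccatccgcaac
Med31: CATGctctgcgtcacgtcacacaggg

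Of the tags printed, all but that of Med31 lie wholly in annotated 3′ untranslated regions of GRCm38: Polr2a at chr11:69734138-69734163 (minus strand), Polr2h at chr16:20722216-20722241 (plus), Med10 at chr13:69816057-69816082 (plus), Med28 at chr5:45529103-45529128 (plus), Tbp at chr17:15528111-15528136 (plus), Taf9 at chr13:100655910-100655935 (plus) and Polr2l at chr7:141471926-141471951 (minus). The Med31 tag, at chr11:72215269-72215294 (minus), is the only CATG of its transcript and starts 863 bases before the annotated 3′ end. The tag of Taf9 is also the last tag of Ak6, a neighbouring adenylate kinase gene that shares the same end. The tag of Polr2l occurs in transcripts of Gon7 and Tmem245. Polr2a, Med10, Med28 and Tbp each had 2 different last tags over their coding transcripts of the basic GENCODE set. Only the tag of the chosen transcript is printed. Among tags not printed, that of Med12 occurs in transcripts of Gm21986 and that of Med17 in transcripts of several genes on either strand. The Polr2b tag overlaps Igfbp7 on the opposite strand, the Med10 tag overlaps Gm26819 and the Med31 tag 4930563E22Rik. Other tags with a gene on the opposite strand were those of Polr2c (Dok4), Polr2j (Lrwd1), Taf3 (Gm13262), Taf6 (Ap4m1), Taf1c (Dnaaf1) and Med12l (Igsf10). Whether counting used strand is not stated, so reads of such pairs cannot be told apart. The deposited tables were made on build mm9, and no source states how tags that match several genes were assigned.

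**Figure D1:**
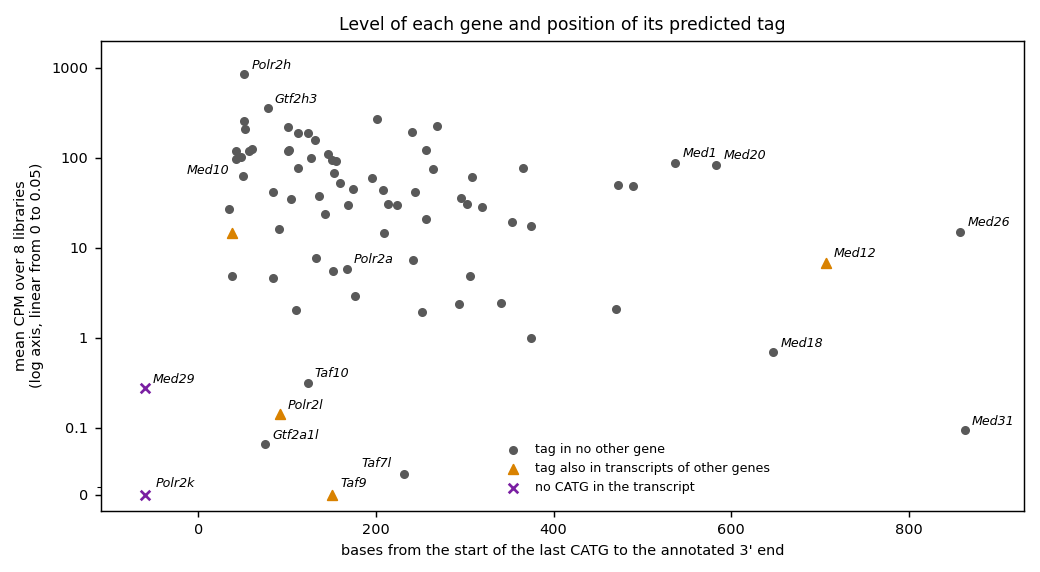
Mean level over the 8 libraries (CPM, vertical, log axis) of each of the 80 genes against the distance in bases from the start of the last CATG to the annotated 3′ end of its transcript (horizontal). Crosses left of 0 are the genes without CATG (Polr2k and Med29), and triangles are genes whose tag also occurs in transcripts of other genes; Polr2k and Taf9 sit at 0.

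Levels of the genes of 1 complex differed by orders of magnitude, although the subunits act together. Because SAGE reads 1 tag per transcript, CPM values do not grow with gene length and were compared between genes as they stand, within the limits that the tags set. In RNA polymerase II, mean CPM over the 8 libraries ran from 0 for Polr2k to 853 for Polr2h, with a median of 118 over the 12 subunits. The 0 of Polr2k is not a level, because its transcript has no CATG. Polr2a, at 5.84 CPM, was the lowest subunit whose predicted tag was found in no other gene. The 31 Mediator genes had a median of 31.0 CPM and a highest mean of 211 CPM (Med8). The TAFs and Tbp had a median of 25.2 CPM, led by Tbp at 226 CPM, and the genes of TFIIA to TFIIH a median of 43.3 CPM, led by Gtf2h3 at 355 CPM.

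**Figure D2:**
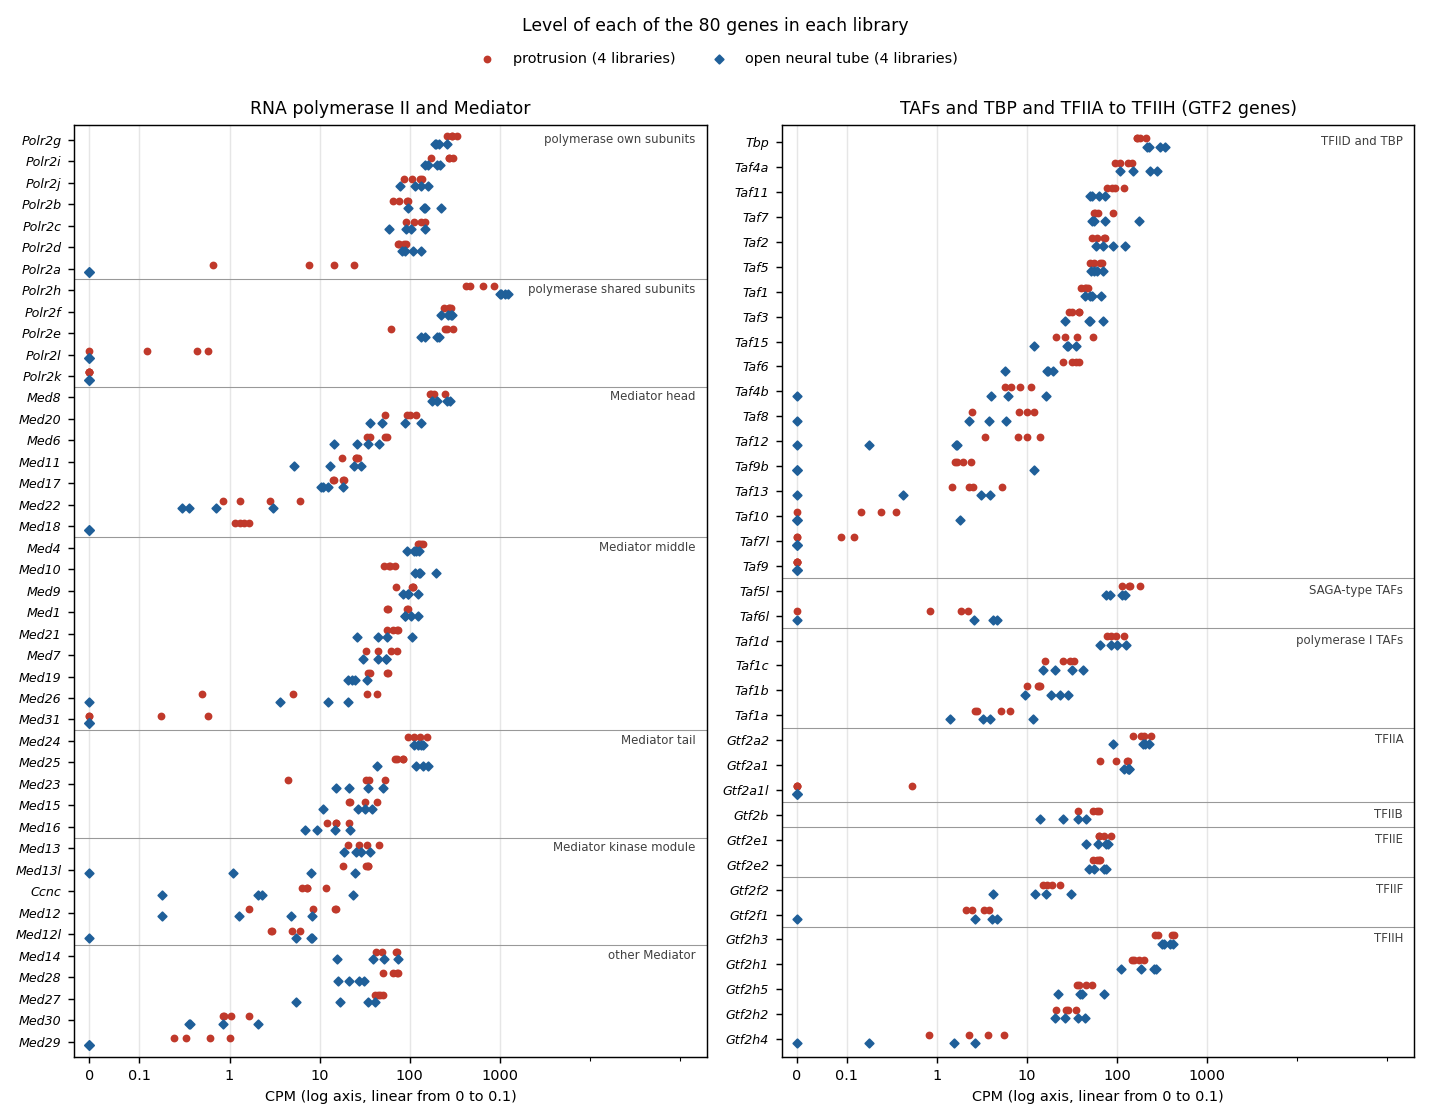
Level of each of the 80 genes in each library (CPM, log axis, linear from 0 to 0.1), ordered by complex and mean. Circles are the 4 protrusions and diamonds the 4 open neural tubes; the groups overlap for most genes, while Med10 and Polr2h lie lower and Med28 higher in all protrusions, and Polr2a is at 0 in all open neural tubes.

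In the comparison of protrusions with open neural tubes, 1 of the 69 tested genes passed. Med10, a subunit of the Mediator middle module, fell in protrusions, a call that was lost when any 1 of 7 of the 8 libraries was left out (adjusted p = 0.0531 to 0.146 in edgeR). No tested gene passed in the other direction. With 1 gene of the 69 called, the share was 1.45%, against 0.607% of the 11036 genes that entered the edgeR quasi-likelihood fit (threshold: Benjamini-Hochberg adjusted p of 0.05), of which 0.281% were higher and 0.326% lower in protrusions. A share that rests on 1 gene cannot be set apart from this background. At an unadjusted p under 0.05 there were 10 of the 69 genes (14.5%), 5 higher and 5 lower in protrusions, against 15.3% of all genes tested (7.02% higher and 8.33% lower). The median log2 fold change was 0.01 for the 69 genes and 0.08 for all genes tested. DESeq2 called 4 of the 69 (Med10, Polr2b and Polr2h lower and Med28 higher, against 7.2% of all genes), and limma-voom 2 (Med10 and Polr2h, against 3.52%).

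In 8 of the 69 genes (11.6%) the CPM values of the groups did not overlap, against 13.4% of all genes tested (8.84% higher and 4.55% lower). Lower in all protrusions were Med10, Polr2h and Tbp, and higher were Med19, Med28, Taf6, Taf11 and Taf12. The 69 genes had passed a filter on low counts. Of them 55 reached the level of 10 reads at the median total (1.20 CPM) in all 8 libraries, 14 were under it in at least 1 open neural tube and 4 in at least 1 protrusion. Taf12 reached that level in 4 protrusions and 2 open neural tubes, so it passed the filter through the group in which it was higher. Its place among the 8 genes and its unadjusted p therefore support no difference. The 11 genes not tested were Polr2a, Polr2k, Polr2l, Med18, Med29, Med30, Med31, Taf7l, Taf9, Taf10 and Gtf2a1l.

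**Figure D3:**
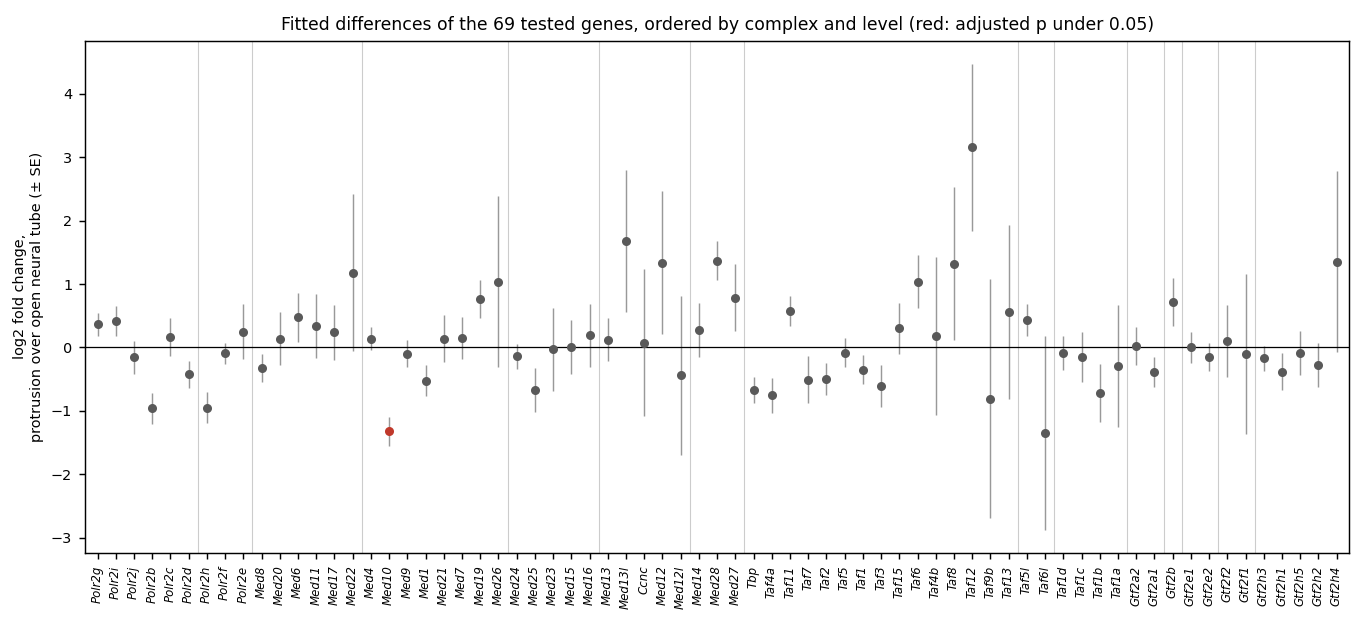
Log2 fold change of protrusion over open neural tube with its standard error for the 69 tested genes, from the edgeR fit of all genes, ordered by complex and level. Med10 (red) is the gene past the adjusted threshold, at −1.32, and the widest bars belong to genes near 0 reads in some libraries, such as Taf12 and Taf9b.

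Among the polymerase's own subunits, 0 of 6 tested passed in edgeR, with 1 at an unadjusted p under 0.05. Polr2b, the second-largest subunit, which closes the active site with Polr2a, stood at 94.2, 65.1, 95.1 and 76.7 CPM in protrusions 1 to 4, against 142, 222, 94.7 and 149 CPM in open neural tubes 9, 10, 13 and 14. The groups met only at open neural tube 13, which lay below the highest protrusion. The log2 fold change was −0.96 ± 0.25 (SE; edgeR adjusted p = 0.0849, range 0.0209 to 0.282 over 17 fits), which did not pass; DESeq2 alone called it. Polr2g, which forms a stalk on the enzyme with Polr2d, was the most abundant subunit not shared with other polymerases, at 259, 333, 293 and 294 CPM in the protrusions and 261, 195, 189 and 214 CPM in the open neural tubes. Here the groups overlapped at open neural tube 9 (log2 0.37 ± 0.18, adjusted p = 0.375). The other 4 tested subunits, Polr2c, Polr2d, Polr2i and Polr2j, had log2 fold changes of −0.42 to 0.42 and adjusted p-values of 0.390 to 0.859.

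Polr2a encodes the largest subunit, whose repeated tail is phosphorylated during transcription. It had 4, 100, 276 and 63 reads in protrusions 1 to 4, which is 0.654, 14.3, 24.1 and 7.57 CPM, and 0 reads in each of the 4 open neural tubes. The separated protrusion was thus near the open neural tubes and the attached ones were above them. A count of 0 allows up to 3 reads, or 0.296, 0.529, 0.180 and 0.358 CPM in open neural tubes 9, 10, 13 and 14, if reads are taken as independent molecules. Against the highest of these per-library floors the protrusion mean was at least 22.1-fold higher, and the mean of the attached protrusions at least 29.0-fold. Such floors cover counting error only, and libraries in which few genes are detected can miss transcripts at higher levels. Of 3261 genes with a protrusion mean of 5 to 20 CPM, the range of Polr2a, 37 (1.14%) were likewise at 0 in all 4 open neural tubes. In the other direction, 1 of 3128 genes (0.0320%) with an open neural tube mean of 5 to 20 CPM was at 0 in all 4 protrusions.

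Polr2a did not pass the filter on low counts when all 8 libraries were used. Without the separated protrusion it passed, through the attached ones alone, and was called with an adjusted p of 0.0495 in edgeR. In that fit 2 of 71 genes of the machinery (Med10 and Polr2a) were called, 2.82% against 1.5% of all genes. Polr2a entered it only through the group in which it was high, so its call and this share support no difference. In the other 6 fits that held Polr2a, its adjusted p was 0.0523 to 0.0932. Likeness to Polr2a was taken by Pearson's r of log2 CPM over the 8 libraries, with 2 reads added to each count. The 5 genes of the machinery most like it were Med18 (0.91), Polr2l (0.88), Med29 (0.88), Med19 (0.87) and Polr2g (0.85). This is a description over points that share their library's depth. The first 3 genes were also at 0 in all open neural tubes and had at most 19 reads in any library. Their r therefore depends strongly on the added reads.

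The subunits shared with the other polymerases held the most abundant gene and one that could not be counted. Polr2h, a small assembly subunit, stood at 417, 873, 471 and 646 CPM in the protrusions, against 1139, 1236, 999 and 1039 CPM in the open neural tubes. All 4 protrusions lay below all open neural tubes (log2 −0.95 ± 0.25, edgeR adjusted p = 0.0849, range 0.0116 to 0.221 over 17 fits). Polr2e, at 258, 301, 61.8 and 245 CPM in the protrusions and 203, 135, 209 and 149 CPM in the open neural tubes, was low in protrusion 3 alone (log2 0.25 ± 0.43, adjusted p = 0.850). Polr2f averaged 269 ± 18.02 CPM in the protrusions and 268 ± 31.1 CPM in the open neural tubes (SD, n = 4 each). Polr2k was at 0 in all 8 libraries, and its transcript has no CATG. Polr2l had at most 5 reads in any library.

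**Figure D4:**
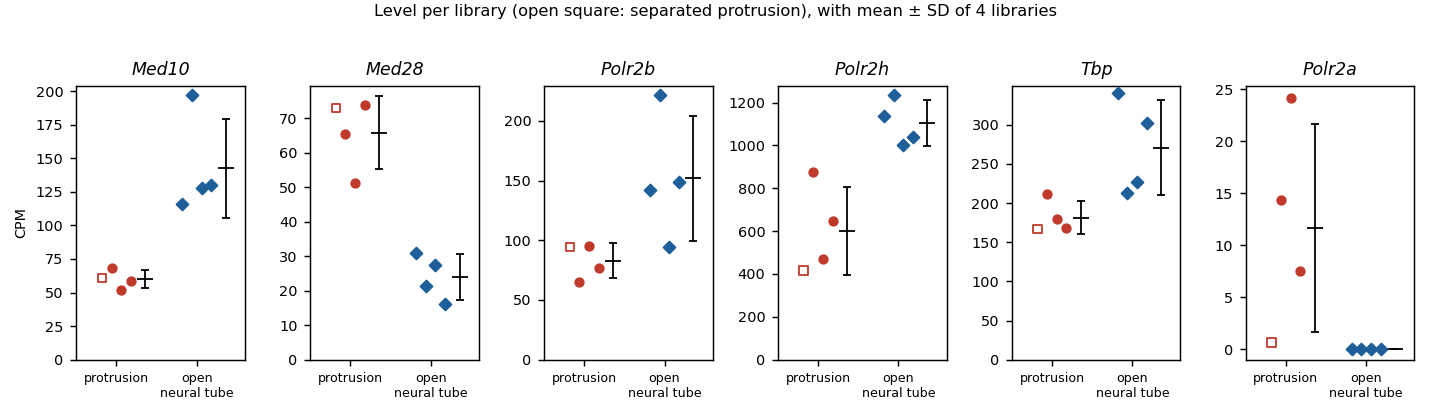
Level per library (CPM) of 6 genes, protrusions on the left and open neural tubes on the right of each panel, with the mean and SD of 4 libraries beside the points; the open square is the separated protrusion. Med10, Polr2h and Tbp lie lower in all protrusions, Med28 higher, Polr2b meets at 1 library, and Polr2a is at 0 in all open neural tubes.

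In the Mediator middle module, Med10 stood at 60.7, 68.1, 52.1 and 58.8 CPM in protrusions 1 to 4, against 116, 197, 127 and 130 CPM in open neural tubes 9, 10, 13 and 14. The 2 groups did not overlap, and the protrusions lay close together. Their means were 59.9 ± 6.60 CPM in the protrusions and 142 ± 36.7 CPM in the open neural tubes (SD, n = 4 each), a log2 difference of −1.32 ± 0.22 with an edgeR adjusted p of 0.0390. The call held under 5 other scalings and filters, in DESeq2 and limma-voom and without the separated protrusion. It ended without any other single library, with adjusted p = 0.105, 0.115 and 0.146 without protrusion 2, 3 or 4 and 0.0652, 0.0766, 0.0531 and 0.0932 without open neural tube 9, 10, 13 or 14, at log2 fold changes of −1.36 to −1.11. It also ended without protrusion 1 and open neural tube 13 together (0.0557). Med10 had reads in all 8 libraries. The part of the gap in detected genes in this difference was not tested.

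Med19, a middle-module subunit that contacts transcriptional regulators, stood at 36.3, 57.1, 56.1 and 34.9 CPM in the protrusions and 33.7, 24.5, 22.7 and 20.4 CPM in the open neural tubes. The groups lay apart by a small margin (log2 0.76 ± 0.31, edgeR adjusted p = 0.255). Med4, the most abundant gene of the module, stood at 126, 139.9, 135 and 124 CPM in the protrusions and 116, 93.5, 110.4 and 127 CPM in the open neural tubes, with overlapping groups (adjusted p = 0.7999). Med1, the subunit that binds nuclear receptors, averaged 75.5 ± 21.8 CPM in the protrusions and 101 ± 16.7 CPM in the open neural tubes (SD, n = 4 each; adjusted p = 0.337). Med26, which recruits elongation factors, varied widely within groups, at 0.491, 43.7, 33.6 and 5.05 CPM in the protrusions and 3.65, 0, 20.8 and 12.4 CPM in the open neural tubes. The remaining tested genes of the module, Med7, Med9 and Med21, had log2 fold changes of −0.10 to 0.15.

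In the head module, which contacts the polymerase, 6 of 7 genes were tested and 0 passed in edgeR, with 0 at an unadjusted p under 0.05 and 0 called by DESeq2 or limma-voom. Med8, its most abundant gene, stood at 249, 186, 168 and 172 CPM in the protrusions and 278, 258, 176 and 201 CPM in the open neural tubes (log2 −0.32 ± 0.22, edgeR adjusted p = 0.545). Med6 stood at 55.8, 35.99, 33.2 and 53.4 CPM in the protrusions and 45.9, 34.8, 14.6 and 26.1 CPM in the open neural tubes (log2 0.48 ± 0.39, adjusted p = 0.630). The groups overlapped for both. Med18 had 7, 9, 19 and 12 reads in protrusions and 0 in each open neural tube. Its last CATG lies 647 bases from the end, a distance at which genes in general were counted about as often as nearer ones.

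In the tail module, which activators bind, 0 of 5 genes passed in edgeR, with 0 at an unadjusted p under 0.05 and 0 called by DESeq2 or limma-voom. Med24 was its most abundant gene, at 155, 96.4, 129 and 111 CPM in the protrusions and 140, 124, 111 and 132 CPM in the open neural tubes, with overlapping groups. Med25 stood at 84.6, 72.3, 84.4 and 68.5 CPM in the protrusions, against 161, 141, 43.8 and 119 CPM in the open neural tubes. Open neural tube 13 was the lowest of all 8 libraries and the other open neural tubes the highest (log2 −0.67 ± 0.34, edgeR adjusted p = 0.394). Med15, Med16 and Med23 had adjusted p-values of 0.910 to 0.998.

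The kinase module, which restrains Mediator, held low and uneven genes, and 0 of 5 passed in edgeR, with 0 at an unadjusted p under 0.05 and 0 called by DESeq2 or limma-voom. Med13l stood at 18.2, 32.7, 34.5 and 34.7 CPM in the protrusions, against 1.09, 0, 24.98 and 8.12 CPM in the open neural tubes. Med12, which activates the module's kinase, stood at 1.64, 14.8, 15.4 and 8.41 CPM in the protrusions and 1.28, 0.176, 8.23 and 4.78 CPM in the open neural tubes. In both genes open neural tube 13, the most deeply sequenced library, was the highest of its group and within the range of the protrusions (log2 1.68 ± 1.12 for Med13l and 1.34 ± 1.13 for Med12, edgeR adjusted p = 0.543 and 0.653). The same library was the highest of all 8 for Ccnc, the cyclin of the kinase, with 23.7 CPM, against 0.176 to 2.27 CPM in the other open neural tubes and 6.45 to 11.9 CPM in the protrusions. Med13 overlapped between groups, at 33.7, 27.2, 45.8 and 20.9 CPM in the protrusions and 18.6, 25.4, 36.1 and 28.9 CPM in the open neural tubes.

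Among the remaining Mediator genes, Med28 stood at 73.0, 65.2, 51.1 and 73.9 CPM in the protrusions, against 31.0, 21.3, 27.6 and 16 CPM in the open neural tubes. All protrusions lay above all open neural tubes, with means of 65.8 ± 10.55 CPM in the protrusions and 24.0 ± 6.65 CPM in the open neural tubes (SD, n = 4 each; log2 1.37 ± 0.30, edgeR adjusted p = 0.0740). Med28 was called by DESeq2 (adjusted p = 0.00168) and with a filter of 20 CPM in 4 libraries (edgeR adjusted p = 0.0375; 2 of 51 genes of the machinery, Med10 and Med28, passed there, against 2.81% of all genes), and not in the 15 other fits, where its adjusted p ran up to 0.219. Med27 stood at 50.1, 40.9, 44.7 and 46.6 CPM in the protrusions and 41.4, 16.9, 34.3 and 5.49 CPM in the open neural tubes (adjusted p = 0.542). Med14, the backbone that joins the modules, stood at 73.1, 48.9, 70.7 and 41.8 CPM in the protrusions and 74.0, 51.5, 39.5 and 15.6 CPM in the open neural tubes. Med29, whose transcript has no CATG, had 2 to 7 reads in protrusions and 0 in open neural tubes, and Med30 averaged 1.10 ± 0.37 CPM in the protrusions and 0.91 ± 0.81 CPM in the open neural tubes (SD, n = 4 each).

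Of TFIID and TBP, 15 of 18 genes were tested and 0 passed in edgeR, with 5 at an unadjusted p under 0.05 (15.3% over all genes) and 0 called by DESeq2 or limma-voom. Tbp, which bends promoter DNA, stood at 167, 212, 180 and 168 CPM in the protrusions, against 341, 213, 227 and 302 CPM in the open neural tubes. The groups were apart by a narrow margin, between protrusion 2 and open neural tube 10 (log2 −0.67 ± 0.21, edgeR adjusted p = 0.148). Taf4a, now named Taf4, a scaffold of TFIID, stood at 145, 109, 132 and 96.0 CPM in the protrusions and 150, 279, 109 and 232 CPM in the open neural tubes, with overlap at open neural tube 13 (log2 −0.75 ± 0.28, adjusted p = 0.219). On the other side, Taf6, Taf11 and Taf12 were higher in every protrusion than in any open neural tube. Taf11 averaged 94.9 ± 17.3 CPM in the protrusions and 59.8 ± 11.1 CPM in the open neural tubes (SD, n = 4 each; adjusted p = 0.282). Taf6 averaged 32.4 ± 5.40 CPM in the protrusions and 14.8 ± 6.19 CPM in the open neural tubes (adjusted p = 0.263), and Taf12 8.80 ± 4.36 CPM in the protrusions and 0.87 ± 0.90 CPM in the open neural tubes (adjusted p = 0.280). Taf12 had passed the filter on low counts through the protrusions, so its separation and its place among the 5 genes support no difference. Taf1, the largest subunit, and Taf5 averaged 44.3 and 59.6 CPM in the protrusions and 53.2 and 59.2 CPM in the open neural tubes.

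Some genes of TFIID, among them paralogs, were counted unevenly. Taf9 was at 0 in all 8 libraries and has its tag in common with Ak6, while its paralog Taf9b stood at 1.58 to 2.36 CPM in the protrusions and at 0 in open neural tubes except for 12.0 CPM in open neural tube 13. Taf7 averaged 65.8 ± 15.95 CPM in the protrusions and 88.6 ± 57.7 CPM in the open neural tubes (SD, n = 4 each), and Taf7l, a germ cell paralog, had under 1 CPM in every library. Taf4b, a paralog known from gonads, stood at 5.74 to 11.1 CPM in the protrusions and 0 to 16.2 CPM in the open neural tubes. Taf10 had 0, 1, 4 and 2 reads in protrusions and 15 reads in open neural tube 14 alone of its group. Of these genes, only Taf9 had a predicted tag found in another gene, so its 0 is uncertain. How tags of the others were assigned is not stated, so misassigned reads cannot be told apart.

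The TAFs of other machines did not pass either. Taf5l of SAGA stood at 137, 180, 113 and 137 CPM in the protrusions and 123, 75.7, 83.0 and 114 CPM in the open neural tubes (log2 0.43 ± 0.25, edgeR adjusted p = 0.475). Taf6l stood at 0, 1.86, 2.19 and 0.841 CPM in the protrusions and 4.64, 0, 2.58 and 4.18 CPM in the open neural tubes, too low to order the groups. All 4 TAFs of RNA polymerase I were tested, with log2 fold changes of −0.72 to −0.09 and adjusted p-values of 0.514 to 0.930. Taf1b stood at 13.3, 13.9, 9.97 and 13.5 CPM in the protrusions and 9.48, 23.1, 18.4 and 28.4 CPM in the open neural tubes, and Taf1d, the most abundant, at 118, 86.0, 76.7 and 96.2 CPM in the protrusions and 101, 86.4, 126 and 63.99 CPM in the open neural tubes. Taf1c stood at 33.7, 15.8, 30.4 and 24.9 CPM in the protrusions and 31.9, 41.6, 20.4 and 15.2 CPM in the open neural tubes.

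The factors TFIIA, TFIIB, TFIIE, TFIIF and TFIIH had 0 of 12 tested genes past the threshold in edgeR, with 0 at an unadjusted p under 0.05 and 0 called by DESeq2 or limma-voom. TFIIA stabilises TBP on DNA. Its large subunit gene Gtf2a1 stood at 128, 64.7, 97.8 and 134 CPM in the protrusions and 136, 134, 132 and 119 CPM in the open neural tubes, and Gtf2a2 at 238, 200, 151 and 185 CPM in the protrusions and 192, 89.1, 226 and 206 CPM in the open neural tubes. The groups overlapped in both, and Gtf2a1l, a germ cell paralog, was at 0 in 7 of 8 libraries. Gtf2b, which places the polymerase at the start site, stood at 59.4, 37.0, 54.2 and 62.9 CPM in the protrusions and 25.4, 13.9, 44.8 and 36.4 CPM in the open neural tubes (log2 0.71 ± 0.38, edgeR adjusted p = 0.422).

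TFIIE and TFIIF join with the polymerase. Gtf2e1 and Gtf2e2 averaged 70.5 ± 10.4 and 60.1 ± 4.61 CPM in the protrusions and 65.4 ± 15.7 and 62.8 ± 12.2 CPM in the open neural tubes (SD, n = 4 each), with fold changes near 0. For Gtf2e1 the values were 72.1, 62.4, 84.6 and 63.0 CPM in the protrusions and 75.1, 61.7, 79.8 and 44.9 CPM in the open neural tubes. For Gtf2e2 they were 59.6, 53.9, 64.6 and 62.4 CPM in the protrusions and 74.8, 71.1, 55.7 and 49.4 CPM in the open neural tubes. The groups overlapped in both, as they did in TFIIF. Gtf2f2 stood at 16.7, 15.2, 19.0 and 23.2 CPM in the protrusions and 16.4, 4.23, 12.2 and 31.2 CPM in the open neural tubes, and Gtf2f1 at 2.13, 2.44, 3.76 and 3.37 CPM in the protrusions and 2.67, 0, 4.14 and 4.66 CPM in the open neural tubes.

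TFIIH opens the promoter and phosphorylates the polymerase tail. Gtf2h3, its most abundant gene here, stood at 412, 263, 423 and 287 CPM in the protrusions and 416, 335, 386 and 314 CPM in the open neural tubes. Gtf2h1 stood at 199, 155, 148 and 176 CPM in the protrusions and 272, 111, 185 and 258 CPM in the open neural tubes (log2 −0.38 ± 0.29, edgeR adjusted p = 0.607). The groups overlapped in both. Gtf2h2 and Gtf2h5 had log2 fold changes of −0.28 and −0.09, and Gtf2h4 stood at 0.818, 3.73, 5.51 and 2.28 CPM in the protrusions and 0, 0.176, 1.56 and 2.63 CPM in the open neural tubes.

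Zeros were more frequent in open neural tubes. Of the 320 values of each group, 18 (5.63%) were 0 in protrusions and 52 (16.3%) in open neural tubes. These include genes without a countable tag of their own and germ cell paralogs, so the shares are not a rate for countable housekeeping genes. Polr2k and Taf9 gave 4 zeros in each group. In protrusions and open neural tubes, Taf7l gave 2 and 4 zeros, Gtf2a1l 3 and 4, and Med29 0 and 4. By library, 8, 4, 2 and 4 of the 80 genes were at 0 in protrusions 1 to 4, and 12, 16, 11 and 13 in open neural tubes 9, 10, 13 and 14. Each open neural tube thus had more of these genes at 0 than any protrusion, although open neural tube 13 had the most reads of all libraries. Over all 26608 symbols, 38.6% to 45.2% were at 0 in protrusions and 56.6% to 62.7% in open neural tubes, so the machinery shares a gap that runs through the whole table.

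In open neural tubes 21 genes were at 0 at least once, and in protrusions 8 were. Polr2a, Polr2k, Polr2l, Med18, Med29, Med31, Taf7l, Taf9 and Gtf2a1l, 9 in all, were at 0 in all 4 open neural tubes, and of these Polr2k and Taf9 were also at 0 in all protrusions. Taf9b and Taf10 were at 0 in 3 open neural tubes each. In 1 open neural tube each, Med12l, Med13l, Med26, Taf4b, Taf6l, Taf8, Taf12, Taf13, Gtf2f1 and Gtf2h4 were at 0. Of the 9 genes at 0 in all open neural tubes, Polr2a had the highest protrusion mean, 11.7 CPM, and Med18 the next, 1.39 CPM.

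Zeros were counted by the mean level over all 8 libraries. All 50 genes of the machinery with a mean of at least 20 CPM had reads in all 8 libraries. Among the 11 with a mean of 5 to 20 CPM, 0 were at 0 in any protrusion, and 1, 4, 2 and 1 were at 0 in open neural tubes 9, 10, 13 and 14, with Polr2a in each of these counts. That is 9.09% to 36.4% of the 11, where 4.85% to 18.8% of all genes of this range were at 0. The means that define the ranges include the zeros themselves. Of the 17 genes with reads and a mean below 5 CPM, 0% to 35.3% were at 0 in protrusions and 41.2% to 58.8% in open neural tubes. Of all genes in that range, 19.3% to 38.1% were at 0 in protrusions and 69.1% to 81.6% in open neural tubes. Over 10 genes with a protrusion mean of 5 to 20 CPM, 4 (40.0%) were at 0 in at least 1 open neural tube, against 39.0% of all genes at that level. With a protrusion mean of 20 to 100 CPM, 2 of 35 (5.71%), Med13l and Med26, were at 0 in an open neural tube, against 4.42% of all genes.

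**Figure D5:**
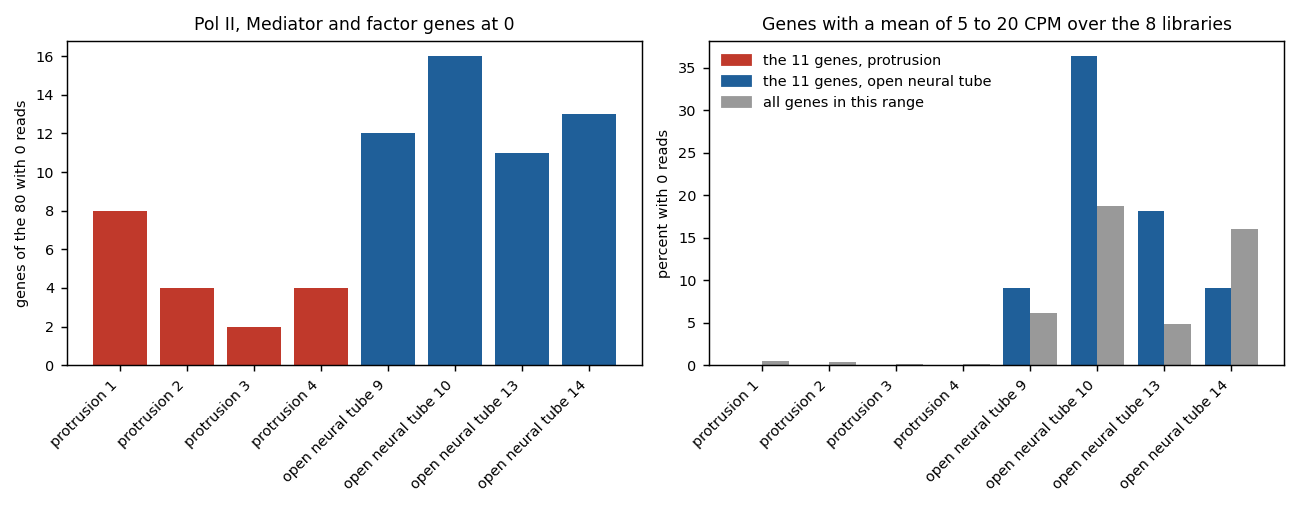
Left, number of the 80 genes with 0 reads in each library. Right, percent with 0 reads among the 11 of them with a mean of 5 to 20 CPM (coloured) and among all genes of that range (grey); bars of the 4 protrusions stand left of those of the 4 open neural tubes, which lie at 9.09% to 36.4% for the 11 genes.

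Values also scattered more among open neural tubes. Over the 50 genes with a mean of at least 20 CPM, the median coefficient of variation was 19.2% in protrusions and 27.7% in open neural tubes, and over all 5586 genes of that range it was 21.9% in protrusions and 32.1% in open neural tubes. Summed over all 80 genes, the machinery made up 5786, 5905, 5374 and 5521 CPM in protrusions 1 to 4, against 6599, 6210, 5706 and 6022 CPM in the open neural tubes. These sums overlapped at open neural tube 13. Polr2h alone averaged 602 CPM in the protrusions and 1104 CPM in the open neural tubes, and the block of TFIIA to TFIIH, at 937 to 1259 CPM in the protrusions and 919 to 1293 CPM in the open neural tubes, overlapped widely.

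Partners of the machinery outside the symbol rule were described from 6 lists of 69 genes in the tables, 65 of them tested. Of these 0 passed in edgeR, 14 had an unadjusted p under 0.05 (8 higher and 6 lower in protrusions), and DESeq2 and limma-voom called 4 each. Over all genes tested the shares were 15.3% at that p, 7.2% in DESeq2 and 3.52% in limma-voom. The helicases and kinase of TFIIH (Ercc2, Ercc3, Cdk7, Ccnh and Mnat1) had 0 of 5 past the threshold, with Ccnh, the cyclin of that kinase, at 46.9 ± 5.82 CPM in the protrusions and 71.5 ± 20.1 CPM in the open neural tubes (SD, n = 4 each; edgeR adjusted p = 0.218). Ercc2, a helicase, averaged 87.3 ± 19.1 CPM in the protrusions and 112 ± 26.4 CPM in the open neural tubes. Cdk8, the kinase of Mediator, averaged 136 ± 33.2 CPM in the protrusions and 135 ± 30.3 CPM in the open neural tubes. Its paralog Cdk19 stood at 4.53 ± 2.49 CPM in the protrusions and 0.81 ± 1.11 CPM in the open neural tubes, with 2 open neural tubes at 0.

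Of 26 tested pausing and elongation factors, 9 had an unadjusted p under 0.05 (5 higher and 4 lower in protrusions), where 15.3% of all genes had one. Leo1, of the elongation complex PAF1, had the smallest p, at 200, 170, 173 and 231 CPM in the protrusions and 299, 343, 449 and 352 CPM in the open neural tubes. Every protrusion was below every open neural tube (log2 −0.99 ± 0.20, edgeR adjusted p = 0.0562), and Leo1 passed in 5 of 17 fits. Ssrp1, of the histone chaperone FACT, averaged 87.5 ± 14.03 CPM in the protrusions and 154 ± 35.6 CPM in the open neural tubes (adjusted p = 0.0785; called by DESeq2). Higher in every protrusion than in any open neural tube was Whsc2, of the pausing factor NELF, at 88.4 ± 24.4 CPM in the protrusions and 35.8 ± 9.84 CPM in the open neural tubes (log2 1.19 ± 0.28, edgeR adjusted p = 0.0794; called by DESeq2 and limma-voom). The other 4 of the 5 higher genes were Cdk9, the kinase that releases paused polymerase, its inhibitor Hexim1, Th1l of NELF and Tcea3. Their log2 fold changes were 0.60 to 1.70, with edgeR adjusted p-values of 0.148 to 0.201. Cdk9, Hexim1 and Th1l were also higher in every protrusion than in any open neural tube, while Tcea3 overlapped. Like Leo1, Ssrp1 and the TBP regulator Drap1 were lower in every protrusion than in any open neural tube. Over all genes tested, the groups did not overlap in 8.84% higher and 4.55% lower in protrusions. Cobra1 and Rdbp, also of NELF, had log2 fold changes of 0.38 and −0.06 (edgeR adjusted p = 0.587 and 0.958). The remaining lower genes were Rtf1 and Elof1, with log2 fold changes of −0.54 and −0.42 (edgeR adjusted p = 0.266 and 0.263). Drap1, which with Dr1 represses TBP on promoters, averaged 588 ± 157 CPM in the protrusions and 1052 ± 79.96 CPM in the open neural tubes (adjusted p = 0.0849; called by DESeq2 and limma-voom), and Tbpl1, a TBP-related factor, 22.2 ± 2.94 CPM in the protrusions and 31.9 ± 11.1 CPM in the open neural tubes.

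Among 9 tested phosphatases of the polymerase tail and assembly factors, Ssu72, a tail phosphatase, averaged 189 ± 35.8 CPM in the protrusions and 116 ± 34.3 CPM in the open neural tubes (SD, n = 4 each; edgeR adjusted p = 0.289). Rprd1b, which binds the tail, averaged 42.1 ± 6.98 CPM in the protrusions and 16.97 ± 9.17 CPM in the open neural tubes (adjusted p = 0.171; called by limma-voom). The 19 subunits of RNA polymerases I and III that polymerase II lacks had a median log2 fold change of 0.23, against 0.08 for all genes tested. Polr1e, a subunit of RNA polymerase I, averaged 112 ± 17.2 CPM in the protrusions and 64.7 ± 33.3 CPM in the open neural tubes (edgeR adjusted p = 0.423). Its groups overlapped at open neural tube 14, with 101 CPM. The values of the 19 subunits included 1 zero of 76 in protrusions and 4 of 76 in open neural tubes.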

How the data were processed

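The deposited files hold whole-number tag counts per gene symbol for 8 libraries, with no normalization by the authors. Per the labels' protocols, each library was made with a SOLiD SAGE kit from 7 to 12 ng of total RNA. Build mm9 is listed in the submitters' processing notes. How tags were mapped, assigned to genes and treated for strand is not stated. Reads carry no molecular identifiers. Groups came from the labels, and replicate numbers of protrusions follow the order of listing.

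CPM values were computed from the deposited counts and library totals. Protrusions were compared with open neural tubes in R 4.3.3 with edgeR 4.0.16 (filterByExpr, minimum count 10; TMM factors; robust quasi-likelihood F test, 2-sided; Benjamini-Hochberg over 11036 genes; threshold 0.05). The common dispersion was 0.5565. Standard errors were derived from the F statistic. DESeq2 1.42.0 and limma 3.58.1 were alternatives. On simulated counts for this comparison (10227 genes in the step, 50 changed genes per fold size), the calls found 6% of the 2-fold, 38% of the 4-fold, 64% of the 8-fold and 68% of the 16-fold changes, and 5 of 93 calls were false.

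Predicted tags were read from GENCODE M21 transcripts (coding, RefSeq-linked and principal ones first), matching 80 genes, 1 of them (Taf4a) by a synonym in the RefSeq table of GRCm38.p6. Tags on chromosome 18 are not printed. One further tag and 1 gene of the comparison lists are not reported here.

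The genes and lists were chosen with earlier results of these data known. Values in every library are given for each gene past the threshold, the 2 with the smallest p and the most abundant in each complex, and genes at 0 in 3 or 4 open neural tubes with a protrusion mean of at least 5 CPM. Other genes named were chosen after their values were seen.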

Additional observations from a re-analysis of the deposited data

Results flagged for a closer look

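Of 72 groups of 4 values examined (35 genes given by library and the number of genes at 0, in each group), 2 held a library far from the other 3 by Dixon's criterion, where chance gives about 1 in 20. Med13l stood at 18.16 CPM in protrusion 1, the separated one, against 32.7 to 34.7 CPM in the other protrusions. Taf1b stood at 9.973 CPM in protrusion 3, against 13.3 to 13.9 CPM in the other protrusions.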

How the results depend on the processing

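The number of genes past the threshold was 67 and became 103 with upper-quartile factors, 157 with a filter of 20 CPM in 4 libraries, 795 with DESeq2 and 389 with limma-voom. Among the 80 genes 1 passed, and 2 did with the 20 CPM filter, 4 with DESeq2 and 2 with limma-voom. Leaving out 1 library gave 1 to 172 genes overall and 0 to 2 of the 80. Without protrusion 1 and open neural tube 13 together (added once the values were known), 211 genes and 0 of the 80 passed. The median log2 fold change of the tested genes of the machinery was −0.0322 to 0.15 over the single left-out libraries (0.01 with all). Of 538 values of 34 named genes under the alternatives, 499 kept direction and call, 8 lost the call (all Med10), 5 gained one and 26 changed sign, 0 of these with an adjusted p under 0.05. Log2 fold changes changed sign in Gtf2e1 (−0.0049 with upper-quartile factors), Gtf2f1 (0.026 without a scaling factor, 0.74 with limma-voom, 0.26 without protrusion 1 and open neural tube 13), Taf1d (0.0016 without a scaling factor), Polr2e (−0.11 with limma-voom) and Gtf2a2 (−0.001 with limma-voom). Over single left-out libraries they ran from −0.1547 to 0.2034 in Gtf2a2, −0.0931 to 0.157 in Gtf2e1, −0.2146 to 0.0121 in Gtf2e2, −0.4459 to 0.2754 in Gtf2f1, −0.1614 to 0.6818 in Gtf2f2, −0.0021 to 0.3373 in Med13, −0.3096 to 0.14 in Taf1c (−0.4121 without protrusion 1 and open neural tube 13) and −0.2212 to 0.1262 in Taf1d. The shares of zeros, 5.63% in protrusions and 16.3% in open neural tubes, became 8.44% and 18.4% with 3 reads or fewer counted as 0 and 6.88% and 16.3% after thinning. No paired analysis was possible because the groups share no replicate numbers. The cause of these shifts was not tested. With 4 libraries a group and this spread, 2-fold changes are seldom called.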
